A study of Homo sapiens with 3 samples.

Results

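The ATF4 integrated stress response genes described here are 10 genes, ATF4, DDIT3, ASNS, CHAC1, TRIB3, SESN2, SLC7A11, PSAT1, PHGDH and PPP1R15A, chosen by name from a table of 46427 genes. The names are those of a known pathway, and they were chosen with earlier results of these data known. They were measured in MG-OKS cells, a line described in the series title as artificial osteosarcoma cells akin to cancer stem cells; the labels give the cell type as mesenchymal. Poly(A) RNA was sequenced from 1 library each of untransfected cells (genotype label WT), cells transfected with a scrambled siRNA and cells transfected with an siRNA directed at SPRR1A, called siSPRR1A below. All 3 libraries come from the same cell line grown in serum-containing medium, both siRNAs were delivered with the same lipid reagent, and the untransfected cells are not labelled as given reagent alone. With 1 library per group there is no replicate and no test, and intervals below are 95% intervals that cover counting error only.

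The libraries held 40050593 (untransfected), 36533542 (scrambled) and 34453554 (siSPRR1A) counts, and 14233 genes reached 1 CPM (counts per 1000000) of the library total in at least 1 library. Levels below are CPM of the scaled library. SPRR1A itself had 0 counts in every library, for which the floor of 3 counts is 0.0736, 0.0826 and 0.088 CPM in that order, so the intended lowering of SPRR1A could not be checked. Of the mesenchymal markers, 7 of 7 had counts in every library, with summed levels of 4840 CPM in untransfected cells, 4731 CPM in the scrambled library and 2323 CPM in the siSPRR1A library. Most of that sum was VIM, at 3391, 3538 and 1380 CPM in that order, and 5 of the 7 markers had ratios below 0 between the siRNA libraries, while NT5E and CDH2 had log2 ratios of 0.23 and 0.47. The epithelial markers KRT14 and KRT6A were also abundant and made up most of the summed epithelial list. That sum stood at 5673 CPM in the untransfected, 2421 CPM in the scrambled and 3370 CPM in the siSPRR1A library. KRT5 and TP63 were low, with at most 5.57 and 2.37 CPM in any library. Of the 4 epithelial markers that reached 1 CPM, 3 had log2 ratios above 0 between the siRNA libraries. TP63 had a log2 ratio of -1.68, from 86 counts in the scrambled and 24 in the siSPRR1A library. The epithelial markers EPCAM and CDH1 had at most 14 counts in any library. Blood and endothelial markers summed to at most 1.84 CPM, with CDH5 and HBB at 0. The marker lists differed between the same libraries as the genes below, and their part in those differences was not tested.

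The integrated stress response begins when kinases phosphorylate the alpha subunit of the translation initiation factor eIF2. This slows the exchange factor eIF2B and general protein synthesis while favouring translation of ATF4, a basic leucine zipper transcription factor that is controlled to a large extent at that step. ATF4 with its partners switches on genes for amino acid uptake and synthesis, cystine import, glutathione turnover and growth restraint, together with feedback regulators that end the response. Tumour cells are known to use this programme under shortage of amino acids and under endoplasmic reticulum (ER) stress, and amino acid synthesis genes of the set can also be active without acute stress.

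ATF4 acts through composite elements whose core can be written TGATGNAA, and related factors use the cyclic AMP response element TGACGTCA. RefSeq promoter windows on GRCh38.p14, which run from 250 bases before to 50 bases after a gene's start, were found for 9 of the 10 genes, in 14 windows. SLC7A11 had no entry. Searched on both strands, TGATGNAA was in a window of ASNS and of CHAC1, against 3.62% of all 35116 windows. Its form TGATGCAA, which overlaps TGATGNAA by construction, was in the CHAC1 window, against 0.866%. TGACGTCA, which reads the same on both strands, was in the PPP1R15A window, against 1.85% of all windows. These shares are of windows and not of genes, and some genes, ASNS among them, had several windows. The 3 windows are shown because they hold such a match, which stands in capitals and is a match of letters only.
ASNS, chr7:97872359-97872658, minus strand, TGATGAAA from -68 to -61 relative to the start: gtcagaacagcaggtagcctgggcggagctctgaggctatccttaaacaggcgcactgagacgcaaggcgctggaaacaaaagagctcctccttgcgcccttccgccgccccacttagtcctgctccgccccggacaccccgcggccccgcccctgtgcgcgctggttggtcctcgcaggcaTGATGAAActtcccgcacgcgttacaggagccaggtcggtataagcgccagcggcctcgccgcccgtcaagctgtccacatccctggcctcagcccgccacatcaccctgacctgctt
CHAC1, chr15:40953221-40953520, plus strand, the motif on the opposite strand from -209 to -202: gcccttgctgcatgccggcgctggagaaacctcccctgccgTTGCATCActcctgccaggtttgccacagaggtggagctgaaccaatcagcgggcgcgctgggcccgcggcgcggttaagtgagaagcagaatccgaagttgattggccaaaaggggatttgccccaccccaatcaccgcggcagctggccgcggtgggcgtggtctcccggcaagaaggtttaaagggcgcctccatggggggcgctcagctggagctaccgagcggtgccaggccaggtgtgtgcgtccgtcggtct
PPP1R15A, chr19:48872171-48872470, plus strand, the motif from -58 to -51: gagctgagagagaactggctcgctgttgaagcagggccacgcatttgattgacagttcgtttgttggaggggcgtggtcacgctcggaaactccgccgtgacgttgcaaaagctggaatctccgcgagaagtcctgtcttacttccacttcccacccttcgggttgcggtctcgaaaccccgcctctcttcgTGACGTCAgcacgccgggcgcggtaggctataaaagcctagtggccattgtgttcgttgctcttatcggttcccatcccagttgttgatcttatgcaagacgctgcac

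All 10 genes passed the filter of 1 CPM, and every one of them was expressed well above the floor in each library. In deposited TPM, which is scaled per gene length and so allows genes to be compared, ATF4 was the most abundant in every library, at 464.6 TPM in the untransfected, 532.4 TPM in the scrambled and 509.8 TPM in the siSPRR1A library. PHGDH, PSAT1 and PPP1R15A followed in this order in all 3 libraries, from 265.7 TPM for PHGDH to 131.0 TPM for PPP1R15A in untransfected cells. DDIT3 (99.2 TPM) and ASNS (80.1 TPM) came next in the untransfected library and stood in the reverse order in the scrambled library, where ASNS stood at 107.1 TPM and DDIT3 at 98.2 TPM. TRIB3 was 7th throughout. SESN2, SLC7A11 and CHAC1 were the least abundant, at 19.8, 18.4 and 13.6 TPM in untransfected cells, and CHAC1 was last in every library. The counting intervals of neighbours in the order overlapped for SESN2 and SLC7A11 in the untransfected library and for no other neighbouring pair in any library. Among kept genes of the untransfected library, ATF4 lay above 97.9% in TPM, PHGDH above 96.0% and CHAC1 above 45.8%.

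The untransfected library had the lowest CPM of the 3 for each of the 10 genes, although for DDIT3 and PHGDH the scrambled and the untransfected library were close and stood in the reverse order in deposited TPM, with log2(TPM + 1) ratios of -0.01 and -0.004. Among all 14233 kept genes, 30.7% were lowest in the untransfected library. The comparisons of both siRNA libraries with untransfected cells share that library, so a low value in it raises both ratios, and lipid transfection, siRNA and culture cannot be told apart there. In bulk RNA, fewer cells with a transcript and less of it per cell cannot be told apart. The transfected libraries divided the genes evenly. ATF4, ASNS, CHAC1, SESN2 and SLC7A11 were highest in the scrambled library. DDIT3, TRIB3, PSAT1, PHGDH and PPP1R15A were highest in the siSPRR1A library.

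**Figure D1:**
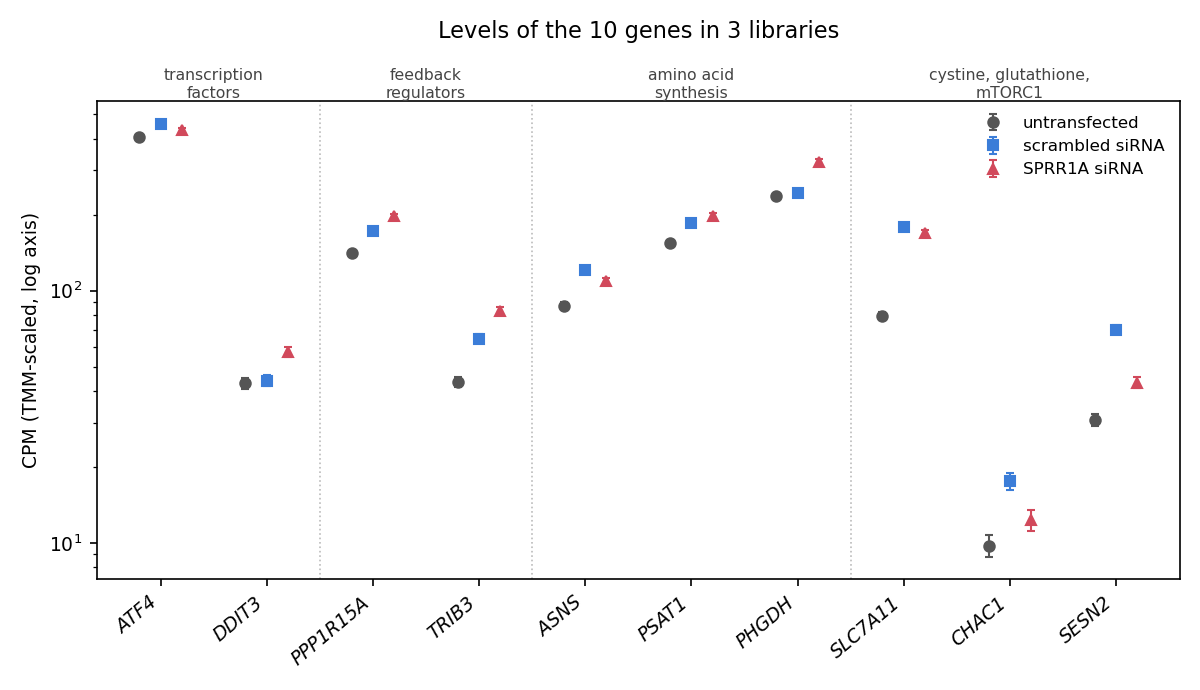
Levels of the 10 genes in CPM on a log axis, grouped by role, with 1 point per library and bars for exact Poisson 95% intervals, which cover counting error only. With this scaling the untransfected library is the lowest point for each gene (in deposited TPM, DDIT3 and PHGDH are slightly lower in the scrambled library), and the step from it to the scrambled library is wide for SLC7A11 (79.5 to 178.4 CPM) and SESN2 (30.8 to 70.2 CPM).

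A gene is called higher or lower here when the log2 ratio of 2 libraries is at least 1 in size, a 2-fold difference, and the counting interval of the ratio excludes 1. This compares libraries, not conditions. Between the siSPRR1A and the scrambled library, 0 of the 10 genes were called in either direction, while of all kept genes 3.7% were called higher and 7.26% lower. The median log2 ratio was 0.01 for the 10 genes and -0.001 for all kept genes, and 5 of the 10 ratios were above 0. At a threshold of 1.5-fold, 1 gene, SESN2, was called lower and none higher, against 15.8% of all kept genes lower and 11.3% higher.

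Against the untransfected library, the siSPRR1A library had 1 gene called higher, SLC7A11, and none lower, where 2.35% of all kept genes were called higher and 8.35% lower. The median log2 ratio of the 10 genes was 0.44, beside -0.0029 over all kept genes. At 1.5-fold TRIB3 joined SLC7A11, giving 2 genes higher and none lower, against 8.86% of all kept genes higher and 18.1% lower. The scrambled library had 2 genes called higher than in untransfected cells, SESN2 and SLC7A11, and none lower, where 1.52% of all kept genes were called higher and 3.44% lower. The median there was 0.38, beside 0.0045 over all kept genes, and CHAC1 joined at 1.5-fold, giving 3 genes higher against 5.09% of all kept genes higher and 9.7% lower.

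**Figure D2:**
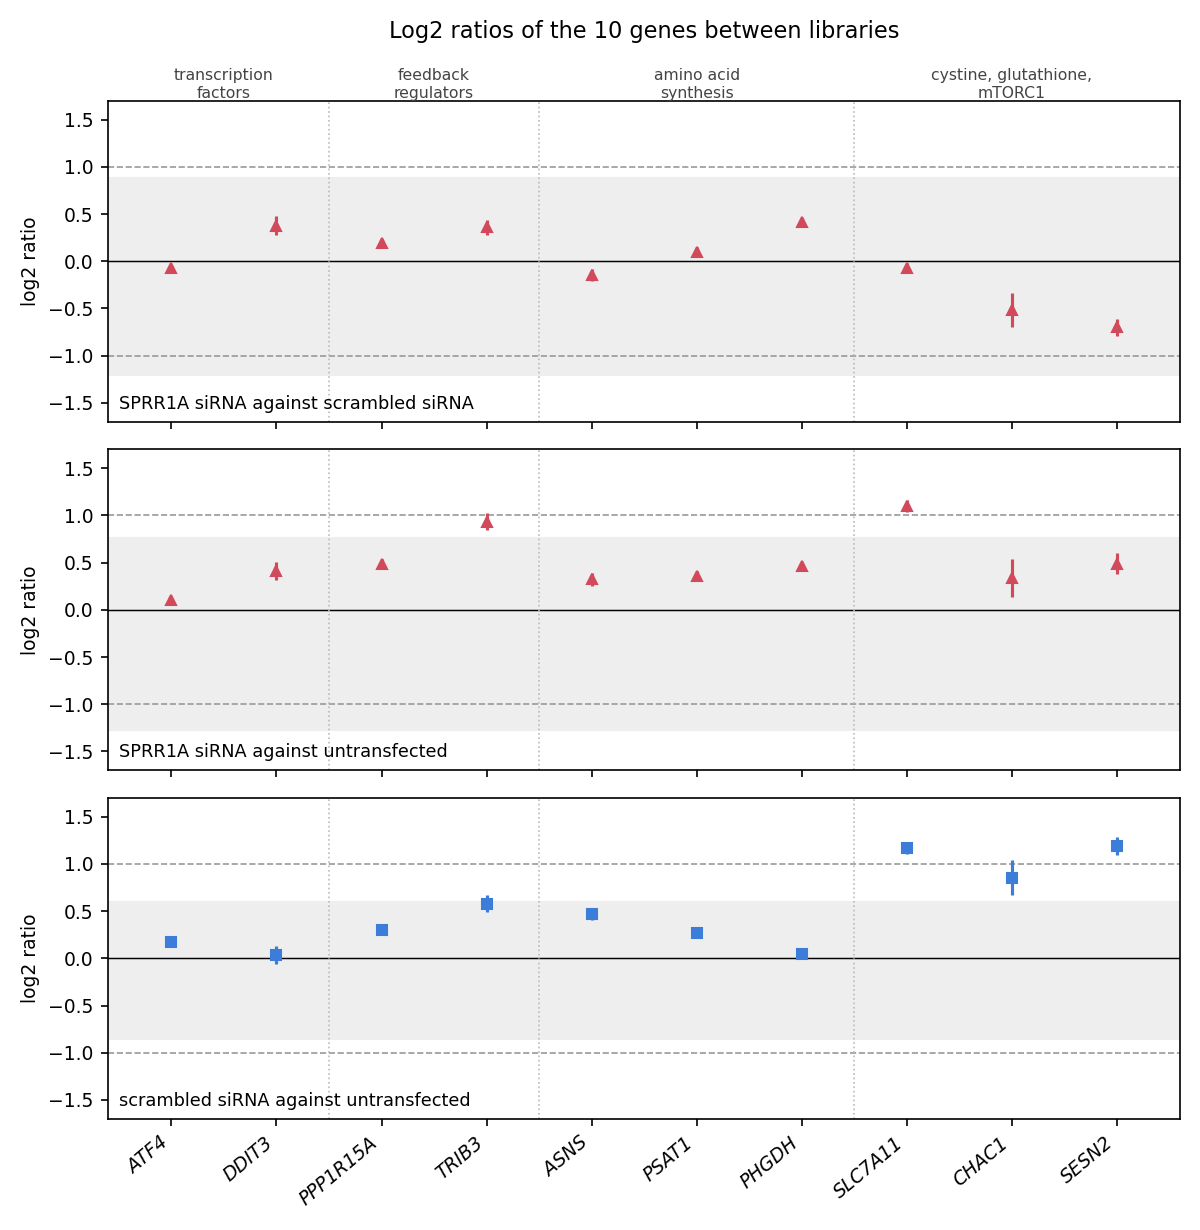
Log2 ratios of the 10 genes in 3 comparisons of libraries, with vertical bars for 95% counting intervals, dashed lines at 2-fold and a grey band from the 5th to the 95th percentile of all kept genes. Against the scrambled library all 10 points of the siSPRR1A library lie inside the band, while SLC7A11, SESN2 and CHAC1 lie above it for the scrambled, and SLC7A11 and TRIB3 for the siSPRR1A against the untransfected library.

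Of the transcription factor genes, ATF4 differed little between libraries. ATF4 (NCBI Gene 468, chr22:39520559-39522686 in GRCh38.p14) had 16499 counts in untransfected cells, 16599 in the scrambled library and 14796 in the siSPRR1A library, or 404.9, 457.2 and 434.2 CPM. Its highest and lowest libraries were thus 1.13-fold apart (1.11 to 1.15), and the siSPRR1A library was 1.05-fold below the scrambled library (1.03 to 1.08). These are mRNA levels, and ATF4 protein, which is set mainly by translation, was not measured. The pseudogenes ATF4P1 to ATF4P4 had at most 16 counts in any library.

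DDIT3, which encodes CHOP, a stress-induced partner of ATF4 linked to cell death (Gene 1649, chr12:57516588-57520517), had 1749, 1596 and 1947 counts in untransfected, scrambled and siSPRR1A cells, or 42.9, 44.0 and 57.1 CPM. The siSPRR1A library stood alone above the others, 1.30-fold over the scrambled library (1.22 to 1.39) and 1.33-fold over the untransfected library (1.25 to 1.42). The controls had a ratio of 1.02 with an interval of 0.957 to 1.10, so that no difference between them was detectable at this depth. DDIT3 overlaps the abundant methionyl-tRNA synthetase gene MARS1, with 12726, 15036 and 11900 counts, in the annotation. Whether counting used the strand is not given in the sources used here, and reads of the overlap may therefore be uncertain. The shared stretch is short, since MARS1 ends at chr12:57516652. MARS1 had a log2 ratio of -0.25 between the siSPRR1A and the scrambled library, opposite in sign to the 0.38 of DDIT3. The counts of both genes summed gave -0.17, but MARS1 holds most of them, so the sum follows MARS1 and does not bear on DDIT3.

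Both feedback regulators were ordered from untransfected over scrambled to siSPRR1A. PPP1R15A, which encodes GADD34, the inducible subunit that directs a phosphatase to eIF2 alpha (Gene 23645, chr19:48872421-48876058), stood at 140.6, 172.6 and 197.0 CPM in that order, from 5728, 6265 and 6713 counts. The siSPRR1A library was 1.14-fold above the scrambled (1.10 to 1.18) and 1.40-fold above the untransfected library (1.35 to 1.45). TRIB3, a pseudokinase that binds ATF4 and AKT (Gene 57761, chr20:380760-397559), stood at 43.3, 64.6 and 82.8 CPM, from 1766, 2346 and 2823 counts. Its steps were larger, 1.49-fold from untransfected to scrambled (1.40 to 1.59) and 1.28-fold from scrambled to siSPRR1A (1.21 to 1.35). The siSPRR1A library was 1.91-fold above the untransfected library (1.80 to 2.03), a ratio reached by 2.84% of all kept genes on that side.

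The paralogue PPP1R15B differed more between the siRNA libraries than PPP1R15A itself. It encodes the eIF2 alpha phosphatase subunit present without stress and had 3145, 2535 and 4618 counts in untransfected, scrambled and siSPRR1A cells. The siSPRR1A library stood 1.94-fold above the scrambled library (1.85 to 2.04) and 1.76-fold above untransfected cells (1.68 to 1.84), below 2-fold in both cases. TRIB2, a paralogue of TRIB3, was lowest in the scrambled library, where it was called lower, 2.49-fold below untransfected cells (2.33 to 2.67). TRIB2 in the siSPRR1A library was 1.92-fold above the scrambled library, and TRIB1 had log2 ratios between -0.08 and 0.06 in the 3 comparisons.

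The amino acid synthesis genes differed in small steps. PHGDH, the first enzyme of serine synthesis from glycolysis (Gene 26227, chr1:119711934-119744215), stood at 236.2, 243.5 and 325.1 CPM in untransfected, scrambled and siSPRR1A cells, from 9627, 8839 and 11077 counts. The controls were 1.03-fold apart, and the siSPRR1A library was the high one, 1.34-fold above the scrambled (1.30 to 1.37) and 1.38-fold above the untransfected library (1.34 to 1.41). PSAT1, the next enzyme of that path (Gene 29968, chr9:78297125-78330093), stood at 154.3, 185.3 and 198.2 CPM, from 6287, 6727 and 6754 counts. Its siSPRR1A library was 1.07-fold above the scrambled library (1.03 to 1.11), and its listed pseudogenes had at most 2 counts.

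ASNS, which makes asparagine from aspartate and is a classic target of ATF4 (Gene 440, chr7:97851677-97928441), stood at 87.2, 120.5 and 109.1 CPM in untransfected, scrambled and siSPRR1A cells, from 3555, 4375 and 3718 counts. The scrambled library was the highest, 1.38-fold above untransfected cells (1.32 to 1.44) and 1.10-fold above the siSPRR1A library (1.06 to 1.15). The readthrough gene CZ1P-ASNS, which overlaps ASNS, held 83, 46 and 71 counts, and summing it with ASNS gave a log2 ratio of -0.13 between the siRNA libraries, beside -0.14 for ASNS alone.

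SLC7A11, CHAC1 and SESN2 were the genes in which the scrambled library differed most from untransfected cells. SLC7A11, the cystine and glutamate exchanger subunit xCT that supplies glutathione synthesis (Gene 23657, chr4:138164097-138242349), had 3239 counts in untransfected cells, 6476 in the scrambled library and 5794 in the siSPRR1A library, or 79.5, 178.4 and 170.0 CPM. Both transfected libraries were high and lay close together. The scrambled library was 2.24-fold above the untransfected library (2.15 to 2.34) and the siSPRR1A library 2.14-fold above it (2.05 to 2.23), while the siRNA libraries were 1.05-fold apart (1.01 to 1.09). SLC7A11 is also a target of NRF2, the regulator of the antioxidant response. Of 10 other NRF2 targets, none was called in any comparison. Among all kept genes, between 1.52% and 3.7% were called higher and between 3.44% and 8.35% lower. The NRF2 targets had a median log2 ratio of 0.38 for scrambled and 0.16 for siSPRR1A against untransfected, beside 0.38 and 0.44 for the 10 stress response genes. In both comparisons 8 of the 10 NRF2 targets had ratios above 0, beside 50.6% and 49.7% of all kept genes. Between the siRNA libraries 3 did. The part of NRF2 was not tested. Chosen after its values were seen, the partner chain gene SLC3A2 was 1.63-fold higher in the scrambled library than in untransfected cells (1.60 to 1.67) and 1.45-fold higher in the siSPRR1A library (1.42 to 1.49).

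SESN2, a leucine-binding restraint on the growth kinase complex mTORC1 (Gene 83667, chr1:28259518-28282491), had 1255, 2547 and 1471 counts in untransfected, scrambled and siSPRR1A cells, or 30.8, 70.2 and 43.2 CPM. The scrambled library stood alone above the others, 2.28-fold over the untransfected library (2.13 to 2.44) and 1.63-fold over the siSPRR1A library (1.52 to 1.73). Among all kept genes, 0.892% had a log2 ratio as high as that of SESN2 between scrambled and untransfected. The siSPRR1A library remained 1.40-fold above untransfected cells (1.30 to 1.51). SESN2 is also known as a target of p53. Of a list of 10 other p53 targets, 5 had log2 ratios above 0 for scrambled against untransfected, from -0.68 for RRM2B to 0.65 for FAS. At 1.5-fold FAS was higher and RRM2B lower, against 5.09% of all kept genes higher and 9.7% lower.

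CHAC1, which degrades glutathione inside the cell (Gene 79094, chr15:40953471-40956512), had the fewest counts of the 10 genes, with 396, 637 and 419 in untransfected, scrambled and siSPRR1A cells, or 9.72, 17.5 and 12.3 CPM. It followed the same order as SESN2, with the scrambled library 1.81-fold above the untransfected (1.59 to 2.05) and 1.43-fold above the siSPRR1A library (1.26 to 1.62). Its intervals were the widest of the set, and for siSPRR1A against untransfected the ratio of 1.27 carried an interval of 1.10 to 1.46. The paralogue CHAC2, whose enzyme is known as the less active form, had 349, 387 and 433 counts and was highest in the siSPRR1A library, 1.19-fold above the scrambled library (1.04 to 1.37). The sestrin paralogue SESN1 was lowest in the scrambled library, with 335, 260 and 419 counts, and SESN3, with 36, 85 and 58 counts, was called 2.65-fold higher in the scrambled library than in untransfected cells (1.78 to 4.03), a call lost with log2(TPM + 1), and at its highest of 2.34 CPM it does not reach a filter of 5 CPM.

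The wider pathway was described with a list of 53 genes, of which 52 were kept. FGF21, a secreted stress hormone, had 3, 6 and 12 counts in untransfected, scrambled and siSPRR1A cells and was not kept. Between the siRNA libraries, 2 of the 52 genes were called lower and 0 higher, with a median log2 ratio of -0.12, beside the shares of all kept genes given above. Against the untransfected library the siSPRR1A library had 1 called higher and 3 lower, with a median of 0.09. The scrambled library had 0 of the 52 called against untransfected cells, at a median of 0.19, and 27 of the 52 genes (51.9%) were lowest in the untransfected library.

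Upstream of ATF4, the kinase genes had different orders. EIF2AK3, the ER stress kinase PERK, had 1163, 1667 and 1361 counts in untransfected, scrambled and siSPRR1A cells and was 1.61-fold higher in the scrambled library than in untransfected cells (1.49 to 1.74). EIF2AK4, the amino acid sensor GCN2, was 1.27-fold higher in that comparison (1.19 to 1.35), and the interval of its ratio between the siRNA libraries included 1. EIF2AK2, the double-stranded RNA sensor PKR, was lowest in the scrambled library, with 4823, 3102 and 4242 counts, and was 1.46-fold higher in the siSPRR1A library (1.39 to 1.53). EIF2AK1, the haem-regulated kinase HRI, was 1.26-fold higher in the siSPRR1A than in the scrambled library (1.22 to 1.30). None of the kinase genes was called at 2-fold in any comparison, where 1.52% to 3.7% of all kept genes were called higher and 3.44% to 8.35% lower.

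Of the wider list, 2 of 52 genes (3.85%), EIF2B2 and CARS1, were called lower in the siSPRR1A library than in both controls, beside 4.64% of all kept genes. EIF2B2, the beta subunit of eIF2B, had 1410 counts in untransfected cells, 1329 in the scrambled library and 397 in the siSPRR1A library, and was 3.14-fold below the scrambled (2.81 to 3.52) and 2.97-fold below untransfected cells (2.65 to 3.33). The other eIF2B subunit genes had log2 ratios between -0.41 and 0.10 to the scrambled library. CARS1, cysteinyl-tRNA synthetase, had 3287, 3270 and 1259 counts and was 2.44-fold below the scrambled (2.28 to 2.60) and 2.18-fold below untransfected cells (2.05 to 2.33). EIF2S3, the gamma subunit of eIF2, had 11119, 8450 and 4644 counts and was called lower than in untransfected cells, just past 2-fold with an interval of 1.93 to 2.07, a call lost with DESeq2 size factors. At 1.71-fold it was not called against the scrambled library.

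The 3' UTR sequences of these genes are of interest because GTCACCC, a 7-base word found earlier in many of the genes farthest below both controls in these same libraries, could be looked for in each. In GENCODE 29 transcripts the word was in 13.1% of 12278 kept genes with a 3' UTR, and in 29.8% of the 570 with a 3' UTR among the 661 genes lower than both controls. It was in 0 of the 10 stress response genes, whose longest 3' UTRs ran from 83 bases for ATF4 to 7859 bases for SLC7A11. In the wider list it was in 7 of 52 genes (13.5%), namely EIF2B2, CARS1, EIF2S3, WARS1, EIF2AK2, SLC3A2 and MARS1. Since the word was found in genes lower than both controls, its share among them is no independent evidence. None of these shares was adjusted for 3' UTR length. The sites in EIF2B2 and CARS1, called lower in the siSPRR1A library than in both controls, are shown with the word in capitals, and neither siRNA's sequence is given in the sources used here.
EIF2B2, chromosome 14, from base 151 after the stop codon: ctgcctttttaGTCACCCcgtaacaaggg
CARS1, chromosome 11, from base 166 after the stop codon: tcatgtttacaGTCACCCttgggtcctaa
Between the siRNA libraries, 6 of the 7 holders of the word had ratios below 0 and EIF2AK2 had 0.54, with a median log2 ratio of -0.77. Of the 45 wider genes without the word, 28 were below 0 (62.2%), at a median of -0.08. The word came from genes low in the siSPRR1A library of these same data, and the 7 holders include EIF2B2 and CARS1. The ratios of the holders are therefore no independent evidence either. A match of letters does not show that an siRNA acted on a gene, and this was not tested.

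Among the transcription partners, 0 of 5 were called in any comparison, where 1.52% to 3.7% of all kept genes were called higher and 3.44% to 8.35% lower. Ratios above 0 were held by 5 of the 5 for scrambled and 4 for siSPRR1A against untransfected, beside 50.6% and 49.7% of all kept genes. Between the siRNA libraries 3 of the 5 were above 0, beside 49.9%. ATF3, induced downstream of ATF4, had 1275, 1575 and 1673 counts in untransfected, scrambled and siSPRR1A cells and was 1.57-fold higher in the siSPRR1A library than in untransfected cells (1.46 to 1.69). CEBPB and ATF5 had log2 ratios of 0.39 and 0.21 in that comparison, and of 0.07 and -0.08 to the scrambled library. The amino acid transporters had 0 of 7 called in any comparison, beside the same shares of all kept genes. SLC7A1, the cationic amino acid transporter, also chosen after its values were seen, was 1.52-fold lower in the siSPRR1A than in the scrambled library (1.46 to 1.59).

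Of 9 enzymes of serine, one-carbon, proline and alanine metabolism, GPT2, the mitochondrial alanine transaminase, was called. It was 2.02-fold higher in the siSPRR1A library than in untransfected cells (1.88 to 2.16), where 2.35% of all kept genes were called higher. The call was lost with library totals without TMM factors, without the 100 most abundant genes and with log2(TPM + 1). Chosen after their values were seen, the mitochondrial serine enzyme gene SHMT2 was 1.56-fold and the proline synthesis gene ALDH18A1 1.88-fold lower in the siSPRR1A than in the scrambled library. PHGDH and PSAT1 had log2 ratios of 0.42 and 0.10 in that comparison. For scrambled against untransfected, 13 of 13 cytosolic tRNA synthetase genes had ratios above 0, with a median of 0.16 and none called, but 12 with library totals without TMM factors or without the 100 most abundant genes and 11 with log2(TPM + 1). Of all kept genes 50.6% were above 0 there, 1.52% were called higher and 3.44% lower. Between the siRNA libraries 5 of the 13 were above 0, and for siSPRR1A against untransfected 7. GDF15, a secreted stress cytokine, had 160, 237 and 167 counts and was 1.66-fold higher in the scrambled library than in untransfected cells (1.35 to 2.04). Its order of libraries in CPM was that of ATF4, ASNS, CHAC1, SESN2 and SLC7A11, and of 10.8% of all kept genes.

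**Figure D3:**
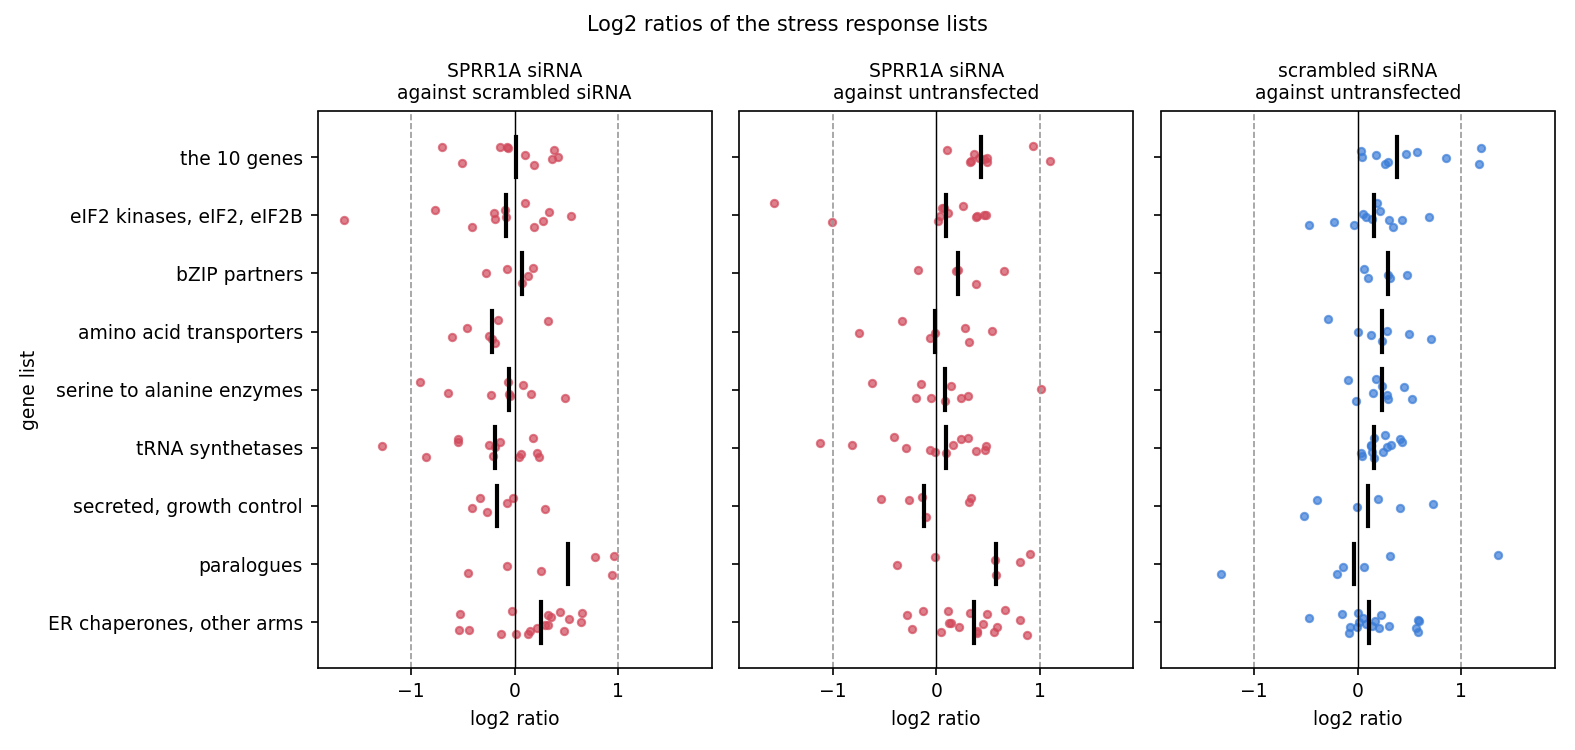
Log2 ratios of the 10 genes and of related lists in 3 comparisons, with 1 point per kept gene, a black bar at each list's median and dashed lines at 2-fold (vertical scatter within a list is only for visibility). The median of the 10 genes is 0.01 between the siRNA libraries and 0.44 and 0.38 against untransfected cells.

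The other arms of the unfolded protein response were compared through 18 genes of ER chaperones and their regulators, none of which was called in any comparison. Of all kept genes, between 1.52% and 3.7% were called higher and between 3.44% and 8.35% lower. At 1.5-fold, 4 of the 18 were higher and 0 lower for siSPRR1A against untransfected, beside 8.86% and 18.1% of all kept genes. Ratios above 0 were held there by 15 of the 18, beside 49.7% of all kept genes. Between the siRNA libraries 2 were higher at 1.5-fold and for scrambled against untransfected 1, with 0 lower in both. The median log2 ratio of the 18 genes was 0.26 between the siRNA libraries, where that of the 10 genes was 0.01, and 0.36 and 0.10 for the siSPRR1A and the scrambled library against untransfected cells. The difference between the lists was not tested. HSPA5, the chaperone BiP, had 26209, 34836 and 32992 counts in untransfected, scrambled and siSPRR1A cells and was 1.51-fold higher in the siSPRR1A library than in untransfected cells (1.48 to 1.53). The siRNA libraries were 1.01-fold apart for it (0.994 to 1.02). DNAJB9, a target of the IRE1 arm, was ordered like TRIB3, as were 19.9% of all kept genes. It was 1.84-fold higher in the siSPRR1A library than in untransfected cells (1.65 to 2.04). HERPUD1, which serves ER-associated degradation, was 1.48-fold higher in the scrambled library than in untransfected cells (1.43 to 1.53) and 1.36-fold lower in the siSPRR1A than in the scrambled library (1.31 to 1.41). Of 10 p53 targets, none was called in any comparison, beside the same shares of all kept genes. The p53 list had medians of -0.13 between the siRNA libraries, and 0.13 for siSPRR1A and 0.01 for scrambled against untransfected. Between the siRNA libraries the ratios ran from -0.84 to 0.88. At 1.5-fold 2 were higher and 2 lower there, beside 11.3% and 15.8% of all kept genes. For siSPRR1A against untransfected 0 were higher and 2 lower at 1.5-fold, beside 8.86% and 18.1%.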

How the data were processed

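Per the labels' protocols, column-purified RNA went into stranded mRNA libraries. The authors deposited whole-number read counts, FPKM and TPM per NCBI gene. Per the submitters' processing notes, HISAT2 2.1.0 was used with GRCh38 (hg38); the counter, annotation release and strand setting are not given in the sources used here. Columns were matched to samples by title, and 0 value columns were left over. The deposited TPM was used to compare genes, and the deposited FPKM was not used. The TPM summed to 999225 for untransfected, 999391 for scrambled and 999131 for SPRR1A siRNA.

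Counts were scaled with TMM factors (edgeR 4.0.16, R 4.3.3) of 1.02, 0.994 and 0.989 in that order. Log2 ratios used a prior count of 2, and 30.7% of genes passed 1 CPM in at least 1 library. Intervals were exact Poisson for levels and exact conditional binomial for ratios (scipy 1.17.1). Reads carry no molecular identifiers, and neither intervals nor floors include anything beyond counting error. No p-value was computed, and the call rule was checked on simulated data. The depth makes counting intervals narrow beside differences that single cultures may show. Alternatives were other scalings, including DESeq2 1.42.0 size factors, a prior count of 0.5, other filters, a 1.5-fold threshold and log2(TPM + 1).

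The members and lists were chosen with earlier results of these data known. Named genes were the 10 genes, list genes called the same way against both controls, the kinases, the paralogues and fixed textbook stress genes; others are marked or follow from a count. GENCODE 29 gave the 3' UTRs, matched by symbol or gene ID.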

Additional observations from a re-analysis of the deposited data

How the results depend on the processing

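No paired analysis was possible because each group has 1 library. For the same reason no replicate could be left out. With 8 alternatives in each of 3 comparisons, the number of the 10 genes called changed with the 1.5-fold threshold alone, to 1 lower between the siRNA libraries, 2 higher for SPRR1A siRNA against untransfected and 3 higher for scrambled against untransfected (within 1.5 times of 2). In the wider list that threshold gave 7 lower between the siRNA libraries, 2 higher and 6 lower for SPRR1A siRNA against untransfected, and 3 higher for scrambled against untransfected. The single wider gene higher than in untransfected cells, GPT2, was not called (0 genes) with library totals without TMM factors, without the 100 most abundant genes and with log2(TPM + 1), and with no expression filter 2 genes were called. The 3 wider genes lower than in untransfected cells became 2 with DESeq2 size factors, where EIF2S3 was at -0.9968. Of all kept genes, 527 were called higher and 1034 lower between the siRNA libraries, against 1182 and 1964 with no expression filter, 304 and 574 with a filter of 5 CPM, 1610 and 2253 at 1.5-fold and 289 and 523 with log2(TPM + 1). For SPRR1A siRNA against untransfected, 335 and 1189 became 959 and 2084, 173 and 652, 1261 and 2577, and 162 and 678 in the same order of settings. For scrambled against untransfected, 217 and 489 became 872 and 1323, 80 and 235, 724 and 1381, and 70 and 228. No called ratio of the 10 genes changed sign. For scrambled against untransfected, DDIT3 ranged from -0.01 to 0.03 and PHGDH from -0.004 to 0.04, with the negative value of each in log2(TPM + 1). SLC7A11 stayed between 1.01 and 1.10 for SPRR1A siRNA and between 1.06 and 1.17 for scrambled against untransfected, and SESN2 between 1.09 and 1.19 in the latter. Counting depth limits CHAC1 most, and the lack of replicates limits every difference.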
